A study of Mus musculus with 9 samples.

Results

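The 10 genes Atm, Atr, Topbp1, Mdc1, Chek1, Chek2, Trp53, Cdkn1a, Bbc3 and Bax form the core of the checkpoint that senses DNA breaks and of the p53 response that can follow. They were taken as a list of names out of 32285 genes in the count matrices, with earlier results of these data known, and all 10 were detected in the germ cells. Their transcripts were counted by single cell RNA-seq in whole testes taken from 9 mice on PND24, each giving 1 library. The 4 control mice were littermates or non-littermates of the cKO mice, and all mice had the background given as C57BL/6 in the labels and as C57BL/6 J in the methods. In the 2 NELF-B cKO mice and the 3 TDP-43 cKO mice, Stra8-iCre, a recombinase that becomes active in spermatogonia (SG), deleted Nelfb, which encodes a subunit of the complex that holds RNA polymerase II in a paused state, or Tardbp, which encodes the RNA and DNA binding protein TDP-43. Each cKO mouse carried 1 floxed and 1 null allele of the targeted gene, so its somatic cells also had only 1 intact copy. The driver reaches full penetrance only some time after the first SG express it.

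During the first wave of spermatogenesis, SG differentiate into spermatocytes (SC), which pass through preleptonema (pL), leptonema (L), zygonema (Z), pachynema (P) and diplonema (D) before the divisions that yield round spermatids (RS). DNA double strand breaks are made on purpose in leptonema and are repaired as the homologous chromosomes synapse, and breaks or chromosomes that stay unrepaired or unsynapsed keep the kinases ATM and ATR active. ATM and ATR phosphorylate the checkpoint kinases CHK2 and CHK1 and, through them, p53, which switches on genes for cell cycle arrest and cell death. In males, ATR together with TOPBP1 and MDC1 also silences the X and Y chromosomes in pachynema.

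By role, Atm encodes the kinase that responds to double strand breaks and Atr the kinase that responds to single stranded DNA and unsynapsed axes. Topbp1 encodes the activator of ATR, and Mdc1 the adaptor that spreads the signal along chromatin by binding phosphorylated H2AX. Chek1 and Chek2 encode the effector kinases CHK1 and CHK2. Trp53 encodes p53, Cdkn1a the cell cycle inhibitor p21, Bbc3 the BH3-only protein PUMA, and Bax the protein that opens the mitochondrial outer membrane. In the GRCm38 build, with the gene models of GENCODE release M21, Atm lies at chr9:53439149-53536740, Atr at chr9:95857597-95951781, Chek1 at chr9:36708482-36727065 and Topbp1 at chr9:103305215-103350428. Mdc1 lies at chr17:35841515-35859670 and Cdkn1a at chr17:29090976-29100727, Bbc3 at chr7:16308393-16318205 and Bax at chr7:45461697-45466898. Chek2 lies at chr5:110839979-110874145 and Trp53 at chr11:69580359-69591873. Other annotated genes overlap Atr (Gm24004, 1700065D16Rik and Gm16794), Cdkn1a (AC167363.2) and Bax (Gm45808), so UMIs of these 3 genes could in part belong to a neighbor.

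Levels are given in CPM, the UMIs of a gene per 1000000 UMIs, from 1 sum for each mouse and stage. Levels are compared within a gene only. The libraries held 119203347 to 159407373 UMIs, and 45132 barcodes passed the filter, of which 26444 fell into 20 clusters with at least 3 markers of 1 cell type. The 4 control libraries and that of NELF-B cKO replicate 1 held many barcodes with few UMIs, with medians of 1754 to 6369, against 14117 to 19254 in the other 4 libraries, and 260 barcode sequences occurred in more than 1 library. The clusters of pL, L and Z were used as 1 class, pL/L/Z SC, with 234 to 868 cells per mouse, and then divided, after the data had been seen, into early pL/L/Z SC, whose best markers were those of pL, and late pL/L/Z SC, whose best markers were those of Z. The study excluded cKO germ cells in which the targeted gene was detected, and here this was done in SG and pL/L/Z SC but not in P SC, D SC or RS, where all cells were kept. It took out 93 of 2514 SG and pL/L/Z SC of the NELF-B cKO and 2852 of 5462 of the TDP-43 cKO, while control cells were not treated this way. In the TDP-43 cKO this rule took out the deeper cells. The median UMIs per SG were 22367 to 36272 before and 17564 to 25205 after it. For pL/L/Z SC they were 10410 to 16792 before and 8633.5 to 14467 after it. The classes were also split among clusters by library. Of early pL/L/Z SC, 94.2% to 100% in the control mice and 98.6% in NELF-B cKO replicate 1 lay in cluster 18, against 98.6% to 100% of the TDP-43 cKO cells and 100% of those of NELF-B cKO replicate 2 in cluster 11. Of SG, 67.9% to 84.6% in the control mice and 90.5% in NELF-B cKO replicate 1 lay in cluster 4, against 0% to 2.72% in the TDP-43 cKO mice and 0.229% in NELF-B cKO replicate 2, whose SG lay for the most part in clusters 7, 9 and 24. By number of cells, late pL/L/Z SC lay mainly in cluster 5 in every mouse. Cluster 20 held 20.0% to 40.1% of those of the control mice and a smaller share in every cKO mouse. The median was 27760 UMIs per cell in cluster 20 against 9507 in cluster 5, so cluster 20 weighed more in sums of UMIs than in cells. Comparisons of genotypes within SG and early pL/L/Z SC thus set different clusters against each other, and those within late pL/L/Z SC did so in part. In P SC, Nelfb was 1.99 and 3.50 CPM for NELF-B cKO against 23.1 to 28.9 in control mice, whereas in RS it was 25.3 and 66.4 CPM, the latter from 12 UMIs, against 7.63 to 23.8 for controls. In the P SC Tardbp was 60.9, 101 and 88.2 CPM for TDP-43 cKO, the first from 4 cells, against 107 to 129.6 for controls, and a Tardbp UMI read at the 3′ end lies outside the deleted exon. In Sertoli cells, which Stra8-iCre does not target, Nelfb was 5.29 and 10.5 CPM for NELF-B cKO against 20.4 to 29.7 in control mice.

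Across the stages of the control mice, the genes did not follow 1 course. Atr, Topbp1 and Mdc1 were higher in pL/L/Z SC than in SG, with no overlap between the 4 mice of either stage, while Atm, Chek1, Chek2, Trp53, Cdkn1a and Bax were lower without overlap. Of all genes with at least 10 UMIs, 19.0% were higher and 34.8% lower without overlap in the same stages. From pL/L/Z SC to P SC all 10 genes were lower without overlap, against 38.3% of all genes. The stages were themselves defined by gene expression, although the listed genes were kept out of the clustering, so these differences between stages are given as descriptions and carry no test.

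**Figure D1:**
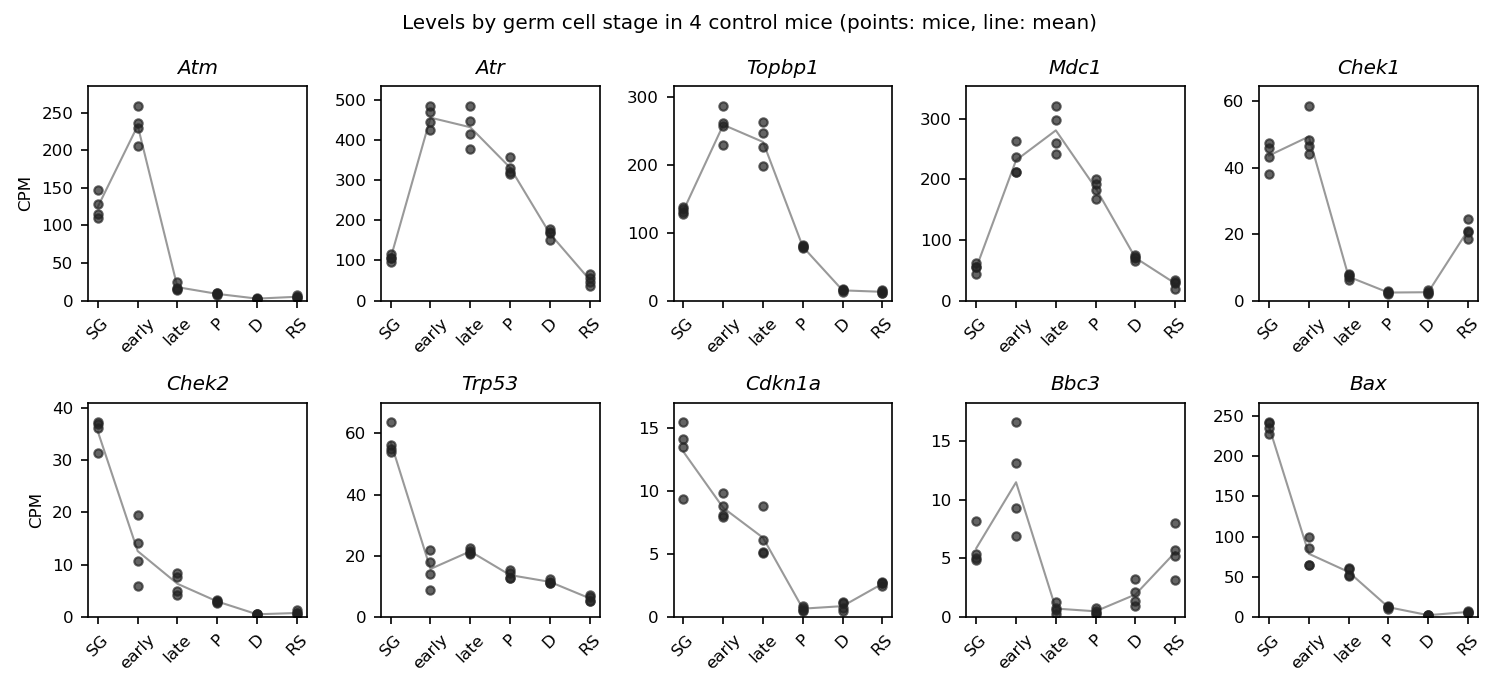
Levels of the 10 genes in CPM on linear axes, from SG to RS in the 4 control mice, where each point is 1 mouse and the line joins the means. Atr, Topbp1 and Mdc1 stay high through late pL/L/Z SC, whereas Atm goes from a mean of 233 CPM in early to 17.9 CPM in late pL/L/Z SC.

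The kinases ATM and ATR differed in their timing. Atm was 125 ± 16.8 CPM in SG, 233 ± 22.2 in early pL/L/Z SC, 17.9 ± 4.89 in late pL/L/Z SC, 8.94 ± 1.08 in P SC, 2.65 ± 0.509 in D SC and 5.12 ± 1.86 in RS (mean ± SD, n = 4 control mice throughout). It was thus highest in early pL/L/Z SC, and the mean log2 difference from early to late pL/L/Z SC was -3.66 ± 0.26. Atr was 106 ± 7.79 CPM in SG, 456 ± 26.7 in early pL/L/Z SC, 432 ± 46.3 in late pL/L/Z SC, 332 ± 18.0 in P SC, 167 ± 11.7 in D SC and 52.2 ± 12.7 in RS. Early and late pL/L/Z SC overlapped for Atr, with a log2 difference of -0.08 ± 0.17, and every other neighbor in its order of levels was apart in every mouse. P SC still had more Atr than SG by 1.63 ± 0.12 on the log2 scale, which among the 10 genes was otherwise the case only for Mdc1, and for 22.9% of all genes without overlap.

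The partners of ATR were likewise highest in pL/L/Z SC. Topbp1 was 133 ± 4.62 CPM in SG, 259 ± 23.6 in early pL/L/Z SC, 233 ± 27.7 in late pL/L/Z SC, 79.1 ± 1.93 in P SC, 15.1 ± 1.88 in D SC and 12.9 ± 1.96 in RS. Early and late pL/L/Z SC overlapped, as did D SC and RS, and Topbp1 was already lower in P SC than in SG. Mdc1 was 54.1 ± 7.38 CPM in SG, 231 ± 24.6 in early pL/L/Z SC, 280.5 ± 36.0 in late pL/L/Z SC, 186 ± 13.5 in P SC, 70.5 ± 3.70 in D SC and 28.3 ± 6.98 in RS. Its highest mean was in late pL/L/Z SC, which overlapped early pL/L/Z SC, and P SC exceeded SG by 1.77 ± 0.16 on the log2 scale. Across the 10 cell types of control mice, the mean log2 CPM of Mdc1 and Atr had a Pearson r of 0.928, the highest among the pairs of these genes, over points that share the 4 libraries.

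The effector kinases were genes of SG and of the entry into meiosis. Chek1 was 43.6 ± 4.11 CPM in SG, 49.3 ± 6.45 in early pL/L/Z SC, 7.18 ± 0.780 in late pL/L/Z SC, 2.42 ± 0.360 in P SC, 2.52 ± 0.590 in D SC and 21.1 ± 2.42 in RS. SG and early pL/L/Z SC overlapped for Chek1, the log2 difference from early to late was -2.62 ± 0.12, and RS lay above D SC by 2.66 ± 0.22. Chek2 was 35.4 ± 2.73 CPM in SG, 12.6 ± 5.74 in early pL/L/Z SC, 6.36 ± 1.98 in late pL/L/Z SC, 2.99 ± 0.298 in P SC, 0.537 ± 0.107 in D SC and 0.786 ± 0.400 in RS. Among the germ cell stages SG had the highest Chek2 in every control mouse, and the early and late groups overlapped, with 34 to 53 Chek2 UMIs behind each late value in control mice.

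In the p53 arm, Trp53, Cdkn1a and Bax had their highest germ cell mean in SG, and Bbc3 in early pL/L/Z SC. Trp53 was 57.1 ± 4.45 CPM in SG, 15.7 ± 5.57 in early pL/L/Z SC, 21.5 ± 0.911 in late pL/L/Z SC, 13.7 ± 1.33 in P SC, 11.5 ± 0.747 in D SC and 6.15 ± 1.05 in RS. Late pL/L/Z, early pL/L/Z and P SC overlapped as neighbors, and Sertoli cells (71.6 to 105 CPM) exceeded SG in every control mouse. Cdkn1a was 13.1 ± 2.65 CPM in SG, 8.68 ± 0.883 in early pL/L/Z SC, 6.30 ± 1.75 in late pL/L/Z SC, 0.671 ± 0.160 in P SC, 0.871 ± 0.304 in D SC and 2.65 ± 0.134 in RS. SG and early pL/L/Z SC overlapped, as did early and late and also D and P SC, and in P SC Cdkn1a rested on 4 to 25 UMIs per mouse, and Sertoli cells had 37.6 to 79.6 CPM. Bbc3 was 5.86 ± 1.54 CPM in SG, 11.5 ± 4.26 in early pL/L/Z SC, 0.727 ± 0.433 in late pL/L/Z SC, 0.495 ± 0.208 in P SC, 1.92 ± 1.01 in D SC and 5.51 ± 1.99 in RS. All neighbors in the order of Bbc3 levels overlapped, though early pL/L/Z SC lay above late pL/L/Z SC in each of the 4 mice, with a log2 difference from early to late of -2.82 ± 0.51. Bax was 237 ± 6.93 CPM in SG, 78.7 ± 17.0 in early pL/L/Z SC, 56.1 ± 5.23 in late pL/L/Z SC, 12.3 ± 1.61 in P SC, 2.42 ± 0.510 in D SC and 6.38 ± 1.16 in RS. No neighboring levels of Bax overlapped, and its log2 difference from SG to P SC was -4.17 ± 0.17, the largest of the 10 genes between these stages.

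Bax and Cdkn1a are direct targets of p53 in many tissues, so the 250 bases before a RefSeq start of each in build GRCm38.p6 are shown, with matches to the p53 decamer, the 10 base unit of a p53 response element, in capitals. Either strand was searched.
Bax, chr7:45466899-45467148, minus strand: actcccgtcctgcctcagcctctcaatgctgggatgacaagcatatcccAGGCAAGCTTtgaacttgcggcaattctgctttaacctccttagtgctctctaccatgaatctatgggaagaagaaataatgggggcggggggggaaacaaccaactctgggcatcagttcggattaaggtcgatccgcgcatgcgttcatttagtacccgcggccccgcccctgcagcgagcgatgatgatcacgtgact
Cdkn1a, chr17:29090729-29090978, plus strand: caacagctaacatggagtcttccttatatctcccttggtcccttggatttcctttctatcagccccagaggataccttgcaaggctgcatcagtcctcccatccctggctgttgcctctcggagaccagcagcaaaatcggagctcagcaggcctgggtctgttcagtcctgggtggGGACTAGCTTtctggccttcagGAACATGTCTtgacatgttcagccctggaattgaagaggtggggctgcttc
The Bax window held 1 match, which begins 201 bases before the start, and the Cdkn1a window shown held 2, which begin 73 and 51 bases before it. Cdkn1a has another RefSeq start, whose window at chr17:29093519-29093768 held no match. Of the other windows of the 10 genes, that of Trp53 held 1 match, 75 bases before the start. Of 32851 windows of the same length, 7.13% held at least 1 match, which describes letters in a window and no binding. The E2F words TTTCCCGC, TTTCGCGC, TTTGCCGC and TTTGGCGC, searched on both strands, were found once each before Chek2, Topbp1 and Mdc1 and in 1.86% of all windows.

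Over the mean levels in 10 cell types of the control mice, the genes whose log2 CPM ran most alike were named for each member. They were Polr1b (Pearson r = 0.982) and Tmc8 (Pearson r = 0.980) for Atm. For Atr they were Majin (0.986) and Gm10010 (0.986). For Topbp1 they were Fra10ac1 (0.982) and Zc3h18 (0.978). For Mdc1 they were Hnrnph3 (0.982) and Hnrnph1 (0.980). For Chek1 they were Cacybp (0.948) and Shq1 (0.939). For Chek2 they were Nutf2-ps1 (0.956) and Pop5 (0.955). For Trp53 they were Gm16286 (0.986) and Ywhab (0.977). For Cdkn1a they were Map4k4 (0.979) and Pdcl3 (0.976). For Bbc3 they were Tec (0.925) and Smco4 (0.900). For Bax they were Foxo1 (0.993) and Klhl2 (0.986). These r describe cell types that share the same 4 libraries and carry no test.

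The comparison of genotypes asks whether loss of NELF-B or TDP-43 in germ cells goes with a different level of the checkpoint and p53 genes. It was made per stage with edgeR's quasi-likelihood test over all mice, and a gene was called at a Benjamini-Hochberg adjusted p under 0.05 over all genes tested. The p values measure the spread between mice, and both cKO groups were compared with the same 4 control mice. Differences were found in pL/L/Z SC. In the TDP-43 cKO, 6 of the 10 genes rose there (Atm, Chek1, Chek2, Cdkn1a, Bbc3 and Bax) and 2 fell (Atr and Mdc1). In the NELF-B cKO, 3 rose (Atm, Chek1 and Cdkn1a) and 1 fell (Mdc1). Of all 15185 genes tested in these cells, 19.7% rose and 23.3% fell in the TDP-43 cKO, and 11.1% rose and 9.68% fell in the NELF-B cKO, so the counts of the 10 genes stand against a wide background. When control cells in which Tardbp was detected were excluded as well, which left 66 to 143 pL/L/Z SC per control mouse, Bax was the only gene of the 10 called in the TDP-43 cKO.

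**Figure D2:**
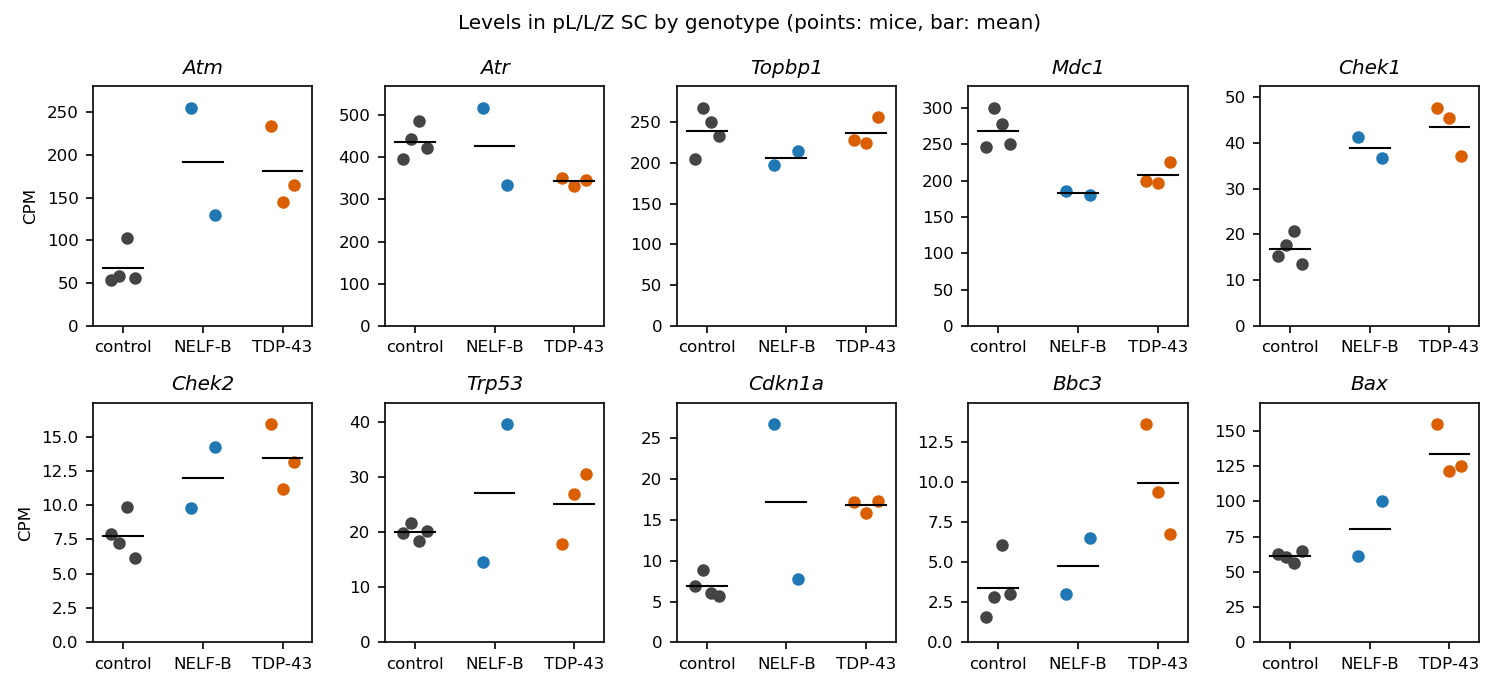
CPM of the 10 genes in pL/L/Z SC by genotype, with 1 point per mouse and a bar at the mean. For Bax the 3 TDP-43 cKO mice (121 to 155 CPM) lie above the 4 control mice (56.2 to 64.6 CPM), while the 2 NELF-B cKO mice lie apart from each other.

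Of the sensor genes, Atm showed the largest changes in pL/L/Z SC. Its level was 54.0, 57.8, 103 and 56.4 CPM for controls, 255 and 129 for NELF-B cKO and 233, 145 and 164 for TDP-43 cKO. Every cKO mouse exceeded every control mouse, as was the case for 23.0% of all genes with at least 10 UMIs in the NELF-B cKO and 22.3% in the TDP-43 cKO, and control replicate 3 stood above the other control mice. Atm rose by a log2 fold change of 1.40 (SE 0.31, adjusted p = 0.0145) in the NELF-B cKO. It rose by 1.37 (SE 0.28, adjusted p = 0.00356) on the log2 scale in the TDP-43 cKO, which became 0.19 (adjusted p = 0.718) when Tardbp-positive control cells were excluded too. Without NELF-B cKO replicate 1, the NELF-B cKO had 0.84 (adjusted p = 0.115), and without control replicate 4 it had 1.29 (adjusted p = 0.0516), and neither was called.

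Atr, in contrast, was 396, 444, 486 and 421 CPM in pL/L/Z SC of the control mice, 517 and 335 for NELF-B cKO and 349.8, 332 and 346 for TDP-43 cKO. The 3 TDP-43 cKO mice lay below all control mice, as for 23.7% of all genes with at least 10 UMIs, and the NELF-B cKO mice lay on both sides of them. Atr fell in the TDP-43 cKO with a log2 fold change of -0.40 (SE 0.14, adjusted p = 0.0444), and the NELF-B cKO had -0.14 (adjusted p = 0.567). Atr was lower in other cells of the TDP-43 cKO mice as well, such as Sertoli cells with 43.4, 71.5 and 61.2 CPM against 71.7, 121, 89.8 and 78.7 for controls, where it was not called. Mdc1 was 246, 300.4, 278 and 251 CPM for controls, 186 and 181 for NELF-B cKO and 199, 197 and 226 for TDP-43 cKO, so that no cKO mouse reached a control mouse, as for 15.9% of all genes in the NELF-B cKO. With stages taken from the nearest control cells, Atr was 415, 397 and 397 CPM in the TDP-43 cKO mice against 396 to 485 for controls, which overlapped, and was not called (-0.14, adjusted p = 0.386). With no germ cell excluded, Mdc1 was 209, 235 and 254 CPM in the TDP-43 cKO mice, which also overlapped the control mice, and neither Mdc1 (-0.25, adjusted p = 0.116) nor Atr (-0.29, adjusted p = 0.159) was called there. Atr was not called with free RNA subtracted either (-0.40, adjusted p = 0.0735). By the stages of the nearest control cells Mdc1 was 237, 239.9 and 263 CPM in the TDP-43 cKO mice against 247 to 311 for controls, which overlapped, and was called in neither genotype. Mdc1 fell with a log2 fold change of -0.65 (SE 0.13, adjusted p = 0.011) in the NELF-B cKO and with -0.42 (SE 0.11, adjusted p = 0.0122) in the TDP-43 cKO. The call of Atr was lost without any 1 of the control or TDP-43 cKO mice, at adjusted p = 0.0538 to 0.128 and log2 fold changes of -0.44 to -0.35, and that of Mdc1 in the TDP-43 cKO without TDP-43 cKO replicate 2 (-0.39, adjusted p = 0.0581). With Tardbp-positive control cells excluded too, Atr had -0.34 (adjusted p = 0.22) and Mdc1 -0.06 (adjusted p = 0.843) in the TDP-43 cKO. Topbp1 overlapped in all groups, with 205 to 267 CPM for controls and log2 fold changes of -0.31 (adjusted p = 0.119) and -0.06 (adjusted p = 0.681).

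Both effector kinase genes were higher in the TDP-43 cKO. Chek1 was 15.4, 17.6, 20.8 and 13.5 CPM in pL/L/Z SC of the control mice, 41.2 and 36.6 for NELF-B cKO and 47.7, 45.4 and 37.0 for TDP-43 cKO. All 5 cKO mice exceeded all control mice. Chek1 rose by a log2 fold change of 1.11 (SE 0.19, adjusted p = 0.00697) in the NELF-B cKO and by 1.32 (SE 0.17, adjusted p = 0.000345) in the TDP-43 cKO. Chek2 was 7.89, 7.22, 9.85 and 6.17 CPM for controls and 15.9, 11.2 and 13.1 for TDP-43 cKO. It rose in the latter with a log2 fold change of 0.74 (SE 0.24, adjusted p = 0.0309), while the NELF-B cKO mice had 9.78 and 14.2 CPM, of which the first lay among the control mice (log2 fold change 0.54, adjusted p = 0.174). The call of Chek2 was lost without control replicate 1 (0.76, adjusted p = 0.054), control replicate 2 (0.71, adjusted p = 0.0687), control replicate 4 (0.65, adjusted p = 0.0856), TDP-43 cKO replicate 1 (0.60, adjusted p = 0.11) or TDP-43 cKO replicate 3 (0.77, adjusted p = 0.0682), while Chek1 stayed called in both genotypes without any 1 mouse. Chek1 was not called in the TDP-43 cKO when Tardbp-positive control cells were excluded too (0.52, adjusted p = 0.149), nor was Chek2 (0.52, adjusted p = 0.505), and Chek1 was called in neither genotype within early or late cells. With stages from the nearest control cells, Chek2 was 10.6, 7.47 and 10.1 CPM in the TDP-43 cKO mice against 5.46 to 9.95 for controls, which overlapped, and was not called (0.37, adjusted p = 0.311). The call of Chek2 was also lost with no filter on low counts (0.71, adjusted p = 0.0662) and with free RNA subtracted (0.69, adjusted p = 0.0528).

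In the p53 arm, Trp53 itself was not called in either genotype in any of the comparisons tested, while Bax, Bbc3 and Cdkn1a were called in pL/L/Z SC of the TDP-43 cKO. Trp53 was 19.9, 21.7, 18.5 and 20.3 CPM in pL/L/Z SC of the control mice, 14.7 and 39.6 for NELF-B cKO and 17.9, 26.9 and 30.7 for TDP-43 cKO. The NELF-B cKO mice lay on opposite sides of the control mice, and the log2 fold changes were 0.34 (adjusted p = 0.472) and 0.27 (adjusted p = 0.476). Bax was 62.3, 60.7, 56.2 and 64.6 CPM for controls and 155, 121 and 125 for TDP-43 cKO, and it rose with a log2 fold change of 1.08 (SE 0.17, adjusted p = 0.00103). The gap between these groups was wider than the range within either. In the NELF-B cKO mice Bax was 61.1 and 100.1 CPM, the first among the control mice and the second above them, with a log2 fold change of 0.31 (adjusted p = 0.283).

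Bbc3 had few transcripts, with 8 to 45 UMIs per control mouse in pL/L/Z SC. Its level was 1.58, 2.81, 6.07 and 3.01 CPM for controls, 3.01 and 6.52 for NELF-B cKO and 13.6, 9.37 and 6.75 for TDP-43 cKO, and the lowest TDP-43 cKO mouse was close to the highest control mouse. Bbc3 rose in the TDP-43 cKO with a log2 fold change of 1.50 (SE 0.44, adjusted p = 0.0194), and the NELF-B cKO had 0.42 (adjusted p = 0.576). The call of Bbc3 was lost with no germ cell excluded (adjusted p = 0.092) and without control replicate 4 (1.46, adjusted p = 0.0516) or TDP-43 cKO replicate 1 (1.20, adjusted p = 0.0794). Cdkn1a was 6.90, 8.81, 6.07 and 5.71 CPM for controls and 17.2, 15.9 and 17.3 for TDP-43 cKO, where it rose with a log2 fold change of 1.24 (SE 0.35, adjusted p = 0.017). All 3 TDP-43 cKO mice lay above all control mice. In the NELF-B cKO mice Cdkn1a was 26.7 and 7.71 CPM, and the call there (1.21, SE 0.39, adjusted p = 0.0494) rests on replicate 1, without which the log2 fold change was 0.07 (adjusted p = 0.905). It was also lost without any 1 of the 4 control mice or without TDP-43 cKO replicate 2 or 3, at adjusted p = 0.0677 to 0.131 and log2 fold changes of 1.09 to 1.32, and came to 1.82 without NELF-B cKO replicate 2. This call did not hold with RLE size factors, with no germ cell excluded, with Nelfb-positive control cells excluded too, with stages from the nearest control cells or with free RNA subtracted, at log2 fold changes of 1.20 to 1.52 and adjusted p = 0.0534 to 0.0748. In the TDP-43 cKO the call of Cdkn1a was lost without control replicate 4 (1.16, adjusted p = 0.0507). With Tardbp-positive control cells excluded too, Cdkn1a had 0.83 (adjusted p = 0.326) and Bbc3 0.36 (adjusted p = 0.716) there. With stages from the nearest control cells, Bbc3 was 4.51 to 10.6 CPM in the TDP-43 cKO mice against 1.57 to 5.91 for controls, which overlapped, and neither Bbc3 (1.23, adjusted p = 0.0549) nor Cdkn1a (0.84, adjusted p = 0.107) was called.

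**Figure D3:**
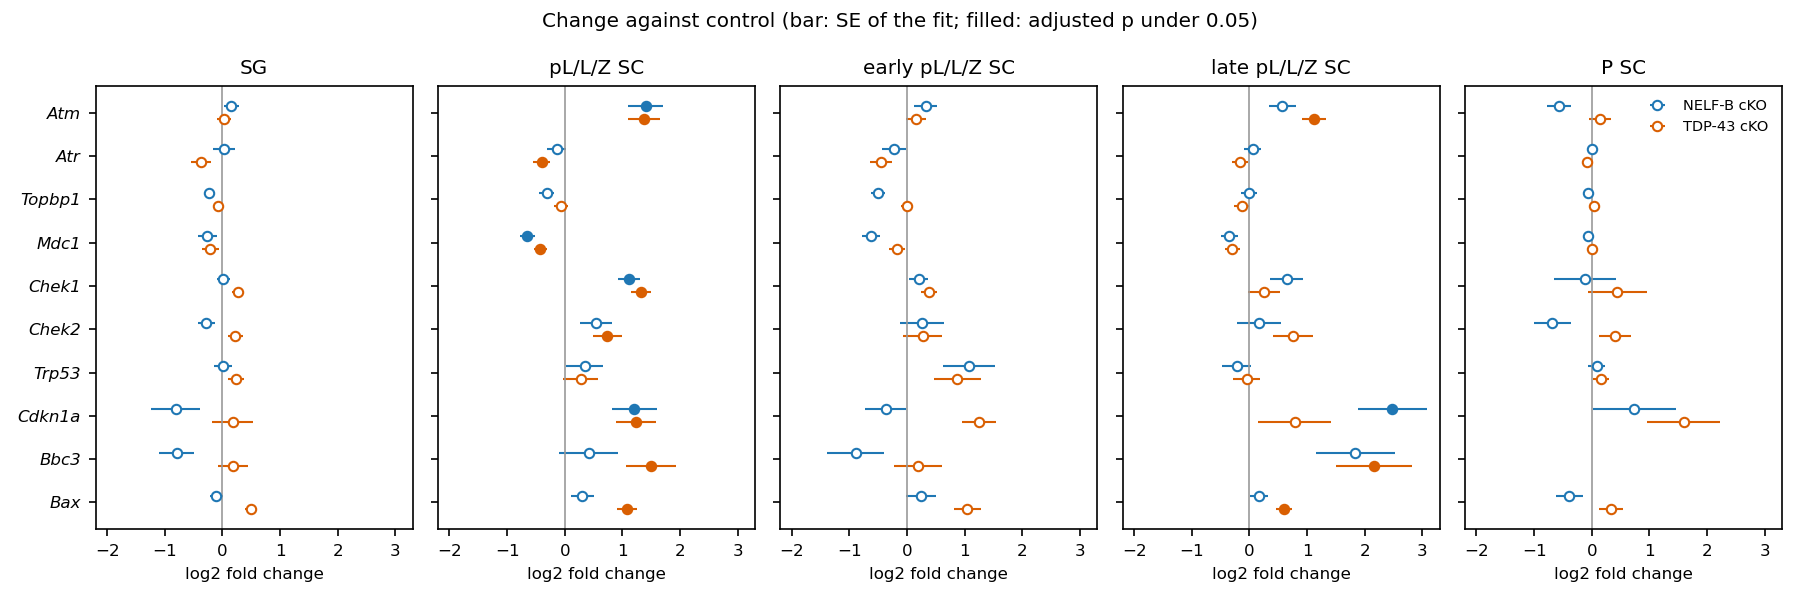
Log2 fold change of each gene against control with its SE, for the NELF-B cKO and the TDP-43 cKO, in SG, pL/L/Z SC, early and late pL/L/Z SC and P SC, where filled points have an adjusted p under 0.05 (edgeR). Filled points are found in pL/L/Z SC and late pL/L/Z SC but not in SG, early pL/L/Z SC or P SC.

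The make-up of the pL/L/Z class differed between the genotypes along with these genes. Early cells were 36.3%, 22.6%, 39.6% and 26.6% of the pL/L/Z SC of the control mice, 72.5% and 58.8% for NELF-B cKO and 85.5%, 58.0% and 58.0% for TDP-43 cKO. Atm, Chek1 and Bbc3 were several times higher in early than in late cells of the control mice, and these 3 genes and Bax were lower in late cells without overlap, as were 22.9% of all genes. With no cell left out, early cells were still 77.4%, 49.6% and 47.0% for TDP-43 cKO. Each gene was therefore compared within early and late pL/L/Z SC as well.

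**Figure D4:**
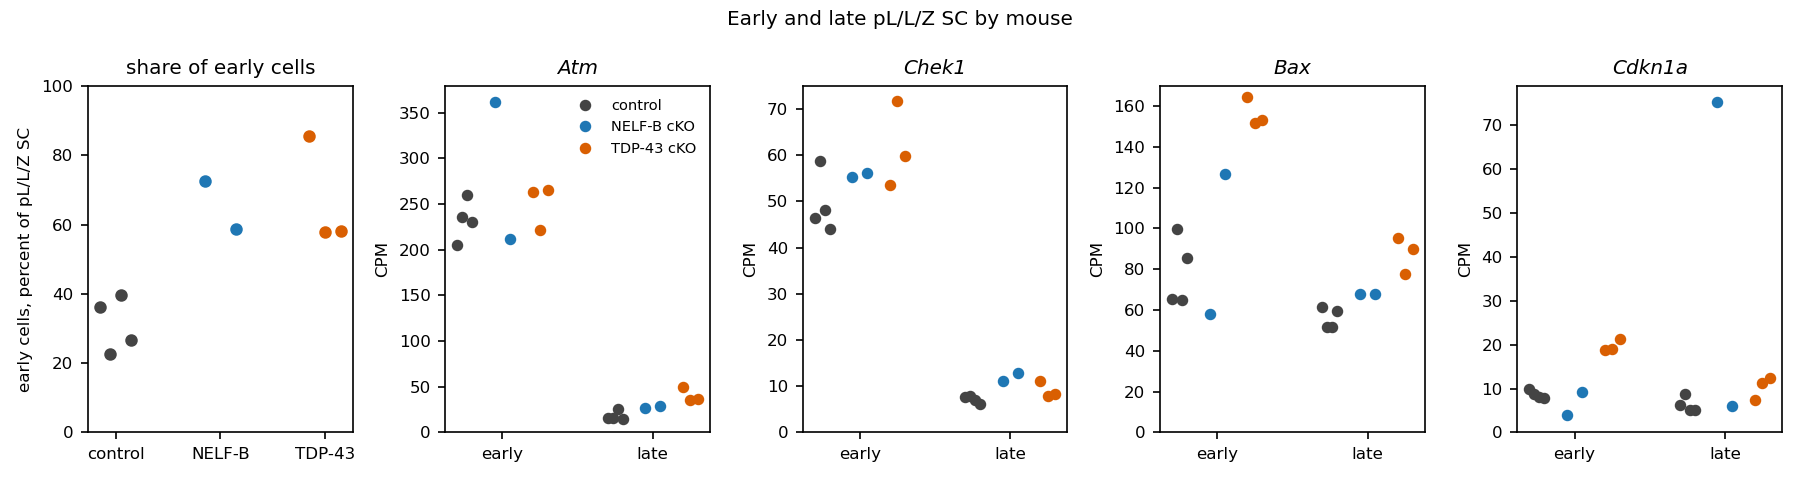
Share of early cells among pL/L/Z SC in percent, and CPM of Atm, Chek1, Bax and Cdkn1a in early and late pL/L/Z SC, by genotype with 1 point per mouse. The share of early cells is higher in all 5 cKO mice than in the 4 control mice, and Bax is higher for TDP-43 cKO in both groups of cells.

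Within early pL/L/Z SC, none of the 10 genes was called, where 0.348% of all genes were called in the NELF-B cKO and 0.00757% in the TDP-43 cKO, in either direction. At an unadjusted p under 0.05, 3 genes of the 10 passed in the NELF-B cKO and 4 in the TDP-43 cKO, and DESeq2 called 2 in each. The control cells lay in another cluster than those of the TDP-43 cKO and of NELF-B cKO replicate 2, as given above. Early Atm was 205, 236, 259 and 230.1 CPM for controls, 362 and 211 for NELF-B cKO and 263, 222 and 266 for TDP-43 cKO. These groups overlapped, and the log2 fold change in the TDP-43 cKO was 0.16 (adjusted p = 0.638). Early Chek1 also overlapped, with 46.4, 58.7, 48.2 and 44.0 CPM for controls and 53.6, 71.7 and 59.9 for TDP-43 cKO (log2 fold change 0.38, adjusted p = 0.15). Early Bax was 65.2, 99.7, 64.8 and 85.3 CPM for controls and 164, 152 and 153 for TDP-43 cKO, without overlap, at a log2 fold change of 1.04 (SE 0.23, adjusted p = 0.0895). In the NELF-B cKO mice early Bax was 58.0 and 127 CPM, the first below and the second above all control mice. Early Cdkn1a also set the TDP-43 cKO apart from the control mice, with 9.88, 8.80, 8.10 and 7.94 CPM for controls against 18.8, 19.0 and 21.3 and a log2 fold change of 1.25 (SE 0.30, adjusted p = 0.0895). Early Mdc1 was 264, 212, 237 and 213 CPM for controls and 163 and 132 for NELF-B cKO (log2 fold change -0.62, adjusted p = 0.106), and early Topbp1 was 229, 287, 257 and 261 against 166 and 193 CPM (-0.51, adjusted p = 0.102), both below all control mice, as 9.94% of all genes with at least 10 UMIs were. Early Atr was 471, 425, 484 and 444 CPM for controls and 335, 294 and 334 for TDP-43 cKO, below all control mice, at a log2 fold change of -0.45 (SE 0.19, adjusted p = 0.191). Of all genes with at least 10 UMIs, 8.42% lay above and 15.0% below the control mice in all 3 TDP-43 cKO mice in these cells.

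Within late pL/L/Z SC, Atm, Bbc3 and Bax rose in the TDP-43 cKO, where 15.8% of all genes tested rose. Cdkn1a alone rose in the NELF-B cKO, where 5.62% did. Cluster 20 held 20.0% to 40.1% of late cells in the control mice and a smaller share in every cKO mouse, as given above. In that cluster 3 markers of Z and 3 of P were at least 2-fold higher than in other cells. Its deeper cells weighed more in the sums than their share of cells. The late group thus still differed in make-up between genotypes, and the part of cluster 20 in these calls was not tested. TDP-43 cKO replicate 1 had 34 late cells, with 27 UMIs of Atm and 52 of Bax, against 209 to 637 late cells per control mouse. Late Atm was 16.3, 15.7, 25.1 and 14.5 CPM for controls and 49.6, 35.1 and 36.7 for TDP-43 cKO, a log2 fold change of 1.12 (SE 0.21, adjusted p = 0.00138). Late Bax was 61.6, 51.5, 51.8 and 59.6 CPM for controls and 95.5, 77.6 and 89.9 for TDP-43 cKO, a log2 fold change of 0.60 (SE 0.14, adjusted p = 0.00435). In both genes the TDP-43 cKO mice lay above all control mice, as 16.8% of all genes with at least 10 UMIs did. The NELF-B cKO mice had 27.1 and 29.2 CPM of Atm and 67.8 and 67.7 CPM of Bax. These too lay above all control mice, though neither gene was called and the share of all genes that did so in the NELF-B cKO was not obtained. Late Bbc3 rose with a log2 fold change of 2.16 (SE 0.65, adjusted p = 0.021), from 1 to 11 UMIs per control mouse and 4, 8 and 4 UMIs for TDP-43 cKO, and is thus the least precise of these values. With Tardbp-positive control cells excluded too, late Atm had 0.75 (adjusted p = 0.13), and Bbc3 could not be tested. Its call was lost without control replicate 4 (2.04, adjusted p = 0.0549), TDP-43 cKO replicate 1 (1.82, adjusted p = 0.063) or TDP-43 cKO replicate 2 (2.04, adjusted p = 0.1). Chek1 was no longer called, with 7.64, 7.88, 7.09 and 6.13 CPM for controls, 11.2 and 12.8 for NELF-B cKO and 11.0, 7.91 and 8.25 for TDP-43 cKO. The cKO mice still lay above all control mice for Chek1, though TDP-43 cKO replicate 2 did so only by 7.91 against 7.88 CPM. The TDP-43 cKO values came from 6, 16 and 20 UMIs. With no germ cell excluded, late Chek1 was 6.17, 6.45 and 7.68 CPM for TDP-43 cKO against 6.13 to 7.88 for controls, which overlapped. No share of all genes was obtained for the NELF-B cKO in late cells. Chek2, Atr and Mdc1 were not called either, nor was Cdkn1a in the TDP-43 cKO (0.79, adjusted p = 0.358), where Cdkn1a overlapped. Late Chek2 was 16.5, 8.40 and 9.90 CPM for TDP-43 cKO, above the 4.29 to 8.37 CPM of the control mice. With no germ cell excluded it was 11.5, 7.87 and 7.47 CPM for TDP-43 cKO, which overlapped the control mice. Late Mdc1 was 242, 321, 298 and 260.3 CPM for controls, 235 and 239.9 for NELF-B cKO and 235, 228 and 236 for TDP-43 cKO, so that both cKO groups lay below all control mice. No share of all genes was obtained for this direction in late cells. Its log2 fold changes were -0.35 (adjusted p = 0.139) and -0.29 (adjusted p = 0.0907). With no germ cell excluded, late Mdc1 was 234, 273 and 283 CPM for TDP-43 cKO, which overlapped the control mice. Late Atr overlapped in both comparisons, at 378 to 486 CPM for controls, 419 to 555 for NELF-B cKO and 361 to 441 for TDP-43 cKO. Late Trp53 and Topbp1 overlapped as well. For Bax, the rise in the TDP-43 cKO was called under all 16 alternative settings of the same threshold in late pL/L/Z SC, at log2 fold changes of 0.39 to 0.95, and under all 17 in pL/L/Z SC, at 0.63 to 1.43. Under the study's own threshold late Bax was not called, since its change of 0.60 is below the 1 required. All TDP-43 cKO libraries also had more UMIs per barcode than all control libraries. No setting can tell this difference between libraries apart from the genotype.

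In SG, none of the 10 genes was called in either genotype by edgeR's quasi-likelihood test, where 0.00542% of all genes were called in the NELF-B cKO and 0.0108% in the TDP-43 cKO. At an unadjusted p under 0.05, 2 passed in the NELF-B cKO and 2 in the TDP-43 cKO, and DESeq2 called 0 and 1. Most SG of the control mice lay in another cluster than those of the TDP-43 cKO mice. Of all genes with at least 10 UMIs, 7.41% lay above all control mice in the TDP-43 cKO. Chek2 and Bax were among them, Bax with 242, 235, 228 and 243 CPM for controls and 327, 302 and 310.4 for TDP-43 cKO, at a log2 fold change of 0.49 (SE 0.10, adjusted p = 0.104). The NELF-B cKO mice had 195 and 245 CPM of Bax, the first below and the second above all control mice. Atm in SG was 109.7, 147, 128 and 115 CPM for controls, 158 and 119.7 for NELF-B cKO and 111, 117 and 134 for TDP-43 cKO, which overlapped. Atr in SG of the TDP-43 cKO mice, 64.8, 81.1 and 87.3 CPM, lay below the 97.0 to 116 CPM of the control mice, as 18.4% of all genes with at least 10 UMIs did, without being called (log2 fold change -0.37, adjusted p = 0.229).

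Whether an effect differed between SG and pL/L/Z SC was tested directly, with each mouse as its own block. The effect of the NELF-B cKO was larger in pL/L/Z SC for Atm, by 1.20 (SE 0.29, adjusted p = 0.0376) on the log2 scale, and for Chek1, by 1.07 (SE 0.24, adjusted p = 0.0309), where 3.41% of all genes passed in this direction. The effect of the TDP-43 cKO was larger in pL/L/Z SC for Atm, by 1.38 (SE 0.26, adjusted p = 0.00369), for Chek1, by 1.08 (SE 0.21, adjusted p = 0.00483), and for Bax, by 0.62 (SE 0.13, adjusted p = 0.00763), where 13.2% of all genes passed in this direction. The NELF-B cKO values did not pass for Atm without control replicate 1 (1.19, adjusted p = 0.0871), control replicate 2 (0.96, adjusted p = 0.0975), control replicate 4 (1.09, adjusted p = 0.103), NELF-B cKO replicate 1 (0.88, adjusted p = 0.204), TDP-43 cKO replicate 2 (1.20, adjusted p = 0.0522) or TDP-43 cKO replicate 3 (1.20, adjusted p = 0.0503). For Chek1 they did not pass without control replicate 1 (1.06, adjusted p = 0.0727), control replicate 2 (0.97, adjusted p = 0.0755), control replicate 4 (0.87, adjusted p = 0.09) or NELF-B cKO replicate 1 (0.98, adjusted p = 0.114). With free RNA subtracted, the values of the TDP-43 cKO were 1.18 (adjusted p = 0.0684) for Atm, 0.81 (adjusted p = 0.099) for Chek1 and 0.39 (adjusted p = 0.129) for Bax. The values of the NELF-B cKO were then 1.15 (adjusted p = 0.273) for Atm and 1.03 (adjusted p = 0.255) for Chek1. In SG the subtraction put free RNA at 83.3% for TDP-43 cKO replicate 1, against 3.75% to 8.99% for controls. These values thus rest in part on the removal of most SG UMIs of 1 mouse. With no germ cell excluded, Bax alone passed in the TDP-43 cKO (0.53, adjusted p = 0.0249). Atm had 0.92 (adjusted p = 0.0699) and Chek1 0.77 (adjusted p = 0.0595) there. Neither Atm (1.16, adjusted p = 0.0755) nor Chek1 (1.09, adjusted p = 0.0527) passed in the NELF-B cKO under that setting. With Tardbp-positive control cells excluded too, Bax alone passed in the TDP-43 cKO (1.19, adjusted p = 0.0158). Atm came to 0.22 (adjusted p = 0.623) and Chek1 to 0.55 (adjusted p = 0.228). With Nelfb-positive control cells excluded too, neither gene passed in the NELF-B cKO, at 0.82 (adjusted p = 0.168) for Atm and 0.91 (adjusted p = 0.103) for Chek1. The stage composition of pL/L/Z SC moved with these differences as well, and its part in them was not tested.

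In P SC, 9 of the 10 genes were tested, Bbc3 having too few UMIs, and none was called in either genotype by edgeR's quasi-likelihood test, where 1.23% of all genes were called in the NELF-B cKO and 0.0342% in the TDP-43 cKO. At an unadjusted p under 0.05, 1 passed in the NELF-B cKO and 1 in the TDP-43 cKO, and DESeq2 called 0 and 0. TDP-43 cKO replicate 1 had 4 P SC and did not enter, which left 2 mice with 86 and 52 cells. Atr was 317, 331, 357 and 322 CPM for controls, 354 and 301 for NELF-B cKO, and 334 and 295 for the TDP-43 cKO mice that entered. Bax, at 14.3, 10.4, 12.4 and 12.1 CPM for controls, was 7.54 and 13.1 for NELF-B cKO and 13.6 and 17.6 in those TDP-43 cKO mice. The log2 fold changes of Atr, Topbp1 and Mdc1 in P SC lay between -0.08 and 0.04 in both genotypes, each with an SE of 0.08 or 0.09.

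With SG and pL/L/Z SC summed into 1 pool per mouse, 6 of the 10 genes were called in the TDP-43 cKO, where 7.07% of all genes rose and 17.2% fell, and 1 in the NELF-B cKO, where 2.80% fell. In the TDP-43 cKO, Chek1 (0.58, adjusted p = 0.00444), Chek2 (0.41, adjusted p = 0.0488), Cdkn1a (0.51, adjusted p = 0.0423) and Bax (0.67, adjusted p = 0.00291) rose, and Atr (-0.69, adjusted p = 0.0112) and Mdc1 (-0.69, adjusted p = 0.00473) fell, as log2 fold changes. With Tardbp-positive control cells excluded too, Bax alone was called (0.48, adjusted p = 0.0418), Atr had -0.20 (adjusted p = 0.455) and Mdc1 turned to 0.04 (adjusted p = 0.896). For the NELF-B cKO, Mdc1 fell by 0.85 on the log2 scale (adjusted p = 0.0331). The call of Mdc1 in the NELF-B cKO was lost without control replicate 1 (-0.92, adjusted p = 0.0527), control replicate 2 (-0.79, adjusted p = 0.0626), control replicate 4 (-0.80, adjusted p = 0.0773), NELF-B cKO replicate 1 (-0.86, adjusted p = 0.0538), TDP-43 cKO replicate 2 (-0.84, adjusted p = 0.0643) or TDP-43 cKO replicate 3 (-0.84, adjusted p = 0.0682). In the TDP-43 cKO, that of Chek2 was lost without any 1 of control replicates 1, 2 and 4 and the 3 TDP-43 cKO mice (adjusted p = 0.0846 to 0.125), and that of Cdkn1a without any 1 of control replicates 2, 3 and 4 and TDP-43 cKO replicates 2 and 3 (adjusted p = 0.0622 to 0.162). With no germ cell excluded, Mdc1 was not called in the NELF-B cKO (-0.88, adjusted p = 0.0569), nor was it with free RNA subtracted (-0.82, adjusted p = 0.12). Free RNA subtraction also ended the calls of Atr (-0.57, adjusted p = 0.0551), Chek2 (0.58, adjusted p = 0.105) and Cdkn1a (0.04, adjusted p = 0.986) in the TDP-43 cKO. The share of free RNA was set from spermatid transcripts, which were scarce in the free RNA of that cKO. It came to 60.6% of the pool in TDP-43 cKO replicate 1, against 3.92% to 8.82% for controls. The pooled values after subtraction thus rest in part on this removal from 1 mouse. Chek2 and Cdkn1a were not called with no filter on low counts (adjusted p = 0.0712 and 0.0532), and Chek2 was not with stages from the nearest control cells (adjusted p = 0.0508). Pooled in this way, a value also carries the proportion of SG to SC in the mouse. The direct comparison of the TDP-43 cKO with the NELF-B cKO called none of the 10 genes by edgeR's quasi-likelihood test, where 0.0656% of all genes were called. Of the 10, 4 passed at an unadjusted p under 0.05, and DESeq2 called 2. The smallest adjusted p was that of Bax (0.56 on the log2 scale, SE 0.12, adjusted p = 0.0832).

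Bax was followed through other cells of the same mice because, once the values were known, it set the TDP-43 cKO apart from the control mice in every stage before P SC. Both NELF-B cKO mice also lay above all control mice in late pL/L/Z SC and in Sertoli cells, where no share of all genes was obtained for this. In SG and early pL/L/Z SC, NELF-B cKO replicate 1 lay below and replicate 2 above all control mice. Replicate 2 was also the NELF-B cKO library with UMIs per barcode and clusters like those of the TDP-43 cKO. The part of this in the Bax values was not tested. In Sertoli cells, Bax was 96.5, 83.2, 78.0 and 97.7 CPM for controls, 116 and 116 for NELF-B cKO and 139.9, 124 and 128 for TDP-43 cKO, and it rose in the latter with a log2 fold change of 0.57 (SE 0.11, adjusted p = 0.0477), where 1.21% of all genes rose. The Sertoli class was split among clusters by genotype too. Cluster 12, with a median of 2174 UMIs per cell, held 54.4% to 72.7% of it for controls, against 31.5% to 45.1% for TDP-43 cKO. Cluster 17, with a median of 35610 UMIs, held 10.4% to 32.0% against 46.0% to 64.2%. The part of this split in the Bax difference was not tested. The call was lost with RLE size factors (0.57, adjusted p = 0.0516) and without any 1 of the control or TDP-43 cKO mice, at adjusted p = 0.0762 to 0.163 and log2 fold changes of Bax of 0.52 to 0.62. In interstitial cells it was 65.5, 97.1, 55.4 and 89.8 CPM for controls and 127, 148 and 141 for TDP-43 cKO, again without overlap, as for 8.53% of all genes with at least 10 UMIs, though the difference was not tested. In Leydig cells the ranges met, with 71.7 to 104 CPM for controls and 101 to 104 for TDP-43 cKO. They overlapped as well in myoid cells, with 62.0 to 138 against 95.5 to 128, and in endothelial cells, with 117 to 246 against 176 to 228. Free RNA, taken from barcodes of 1 to 100 UMIs, held 21.6, 32.0, 29.5 and 35.5 CPM of Bax for controls, 35.8 and 106 for NELF-B cKO and 158, 96.9 and 128 for TDP-43 cKO, so it differed in the same direction. After subtraction of free RNA, a correction chosen after the data had been seen, the log2 fold change of Bax in the TDP-43 cKO came to 1.03 (adjusted p = 0.00134) in pL/L/Z SC and 0.54 (adjusted p = 0.0127) in late pL/L/Z SC. In Sertoli cells it was 0.46 (adjusted p = 0.0785).

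**Figure D5:**
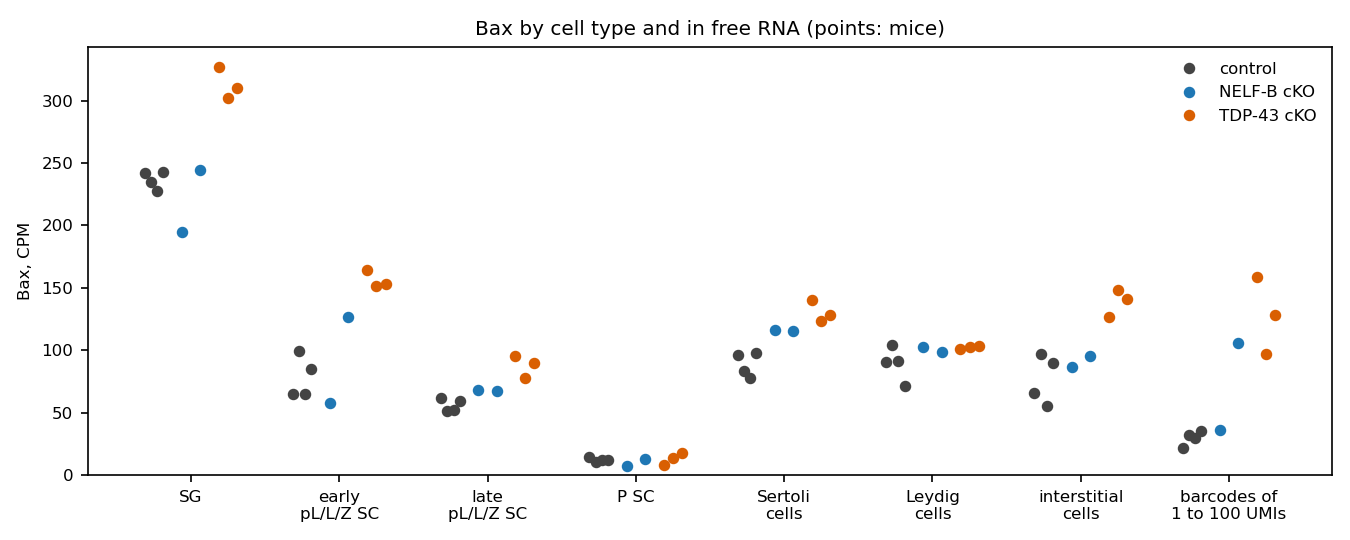
Bax in CPM by genotype in SG, early and late pL/L/Z SC, P SC, Sertoli, Leydig and interstitial cells and in free RNA, with 1 point per mouse. The TDP-43 cKO mice lie above the control mice in SG, early and late pL/L/Z SC, Sertoli cells, interstitial cells and free RNA, and overlap them in P SC, where the lowest TDP-43 cKO point holds 4 cells, and in Leydig cells.

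Other measurements moved with genotype beside these genes, and their part in the results was not tested. The sum of 7 Sertoli cell markers within pL/L/Z SC was 83.1 to 204 CPM for controls, 103 to 433 for NELF-B cKO and 176 to 234 for TDP-43 cKO, and no marker was at 0 in any group. The 6 Leydig cell markers summed to 12.4 to 54.8, 56.5 to 85.3 and 22.2 to 47.4 CPM, the 3 markers of interstitial cells to 2.81 to 5.13, 10.5 to 21.5 and 5.09 to 24.6 CPM, and the 5 of macrophages to 0.540 to 2.76, 3.39 to 7.12 and 0.814 to 4.61 CPM, with none at 0 in any group. Transcripts of spermatid genes in free RNA were 2458, 242, 2737 and 3193 CPM for controls, 3306 and 33.2 for NELF-B cKO and 10.6, 67.7 and 59.1 for TDP-43 cKO. When control cells in which Tardbp was detected were excluded as well, the log2 fold change of Bax in pL/L/Z SC of the TDP-43 cKO was 1.43 (adjusted p = 0.00691).

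The late Cdkn1a of NELF-B cKO replicate 1 came largely from a handful of cells. In late pL/L/Z SC Cdkn1a was 6.16, 8.81, 5.06 and 5.17 CPM for controls, 75.4 and 5.91 for NELF-B cKO and 7.35, 11.4 and 12.4 for TDP-43 cKO. It rose in the NELF-B cKO with a log2 fold change of 2.48 (SE 0.60, adjusted p = 0.0241), and the call was lost without control replicate 1 (2.45, adjusted p = 0.0542), control replicate 4 (2.40, adjusted p = 0.0684) or NELF-B cKO replicate 1 (-0.19, adjusted p = 0.86). It was not called with no germ cell excluded (2.37, adjusted p = 0.0715) or with Nelfb-positive control cells excluded too (2.89, adjusted p = 0.0708). In NELF-B cKO replicate 1, 88 of 128 Cdkn1a UMIs lay in 4 of 160 late cells, and the highest cell held 29. In the control mice no late cell held more than 8. The 8 late cells of both NELF-B cKO mice with at least 3 Cdkn1a UMIs had 1164 CPM summed over the other p53 targets, against 545 in the 313 cells with fewer, and 163 against 468 CPM of the somatic markers, values that carry no test. Of these 8 cells, 7 came from replicate 1, and the 8 were deeper, with a median of 37418 UMIs against 9205. The 2 mice differed too, with 728 CPM of these targets over all late cells of replicate 1 and 519.5 for replicate 2. The part of this in the contrast was not tested. In early cells of the NELF-B cKO the 2 cells with at least 3 Cdkn1a UMIs had less of the other p53 targets, 426 against 573 CPM. The same sums were 422 against 459 CPM in late cells of the control mice and 916 against 626 for TDP-43 cKO. In early cells these 2 groups had 644 against 496 and 828 against 591 CPM. In SG they were 871 against 639 CPM for controls, 1224 against 552 for NELF-B cKO and 1022 against 682 for TDP-43 cKO.

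The wider p53 program was read from a list of 22 other p53 targets. This list and those below were read under the main settings only. Whether their calls hold under the alternatives, which ended many calls of the 10 genes, was not tested. In pL/L/Z SC of the TDP-43 cKO, 11 of 20 tested rose and 3 fell, against 19.7% and 23.3% of all genes, with a median log2 fold change of 0.66 against 0.02 over all genes. The genes with the smallest adjusted p were Ccng1 (2.38, adjusted p = 0.000119), a cyclin that p53 induces, Phlda3 (2.41, adjusted p = 0.000253), an inhibitor of AKT, Gadd45a (1.62, adjusted p = 0.00069), a stress sensor, Aen (0.77, adjusted p = 0.000915), a nuclease of apoptotic cells, and Plk2 (1.08, adjusted p = 0.00147), a polo-like kinase. Ccng1 was 5.91, 8.34, 8.77 and 5.55 CPM for controls, 19.4 and 23.0 for NELF-B cKO and 42.5, 36.9 and 36.1 for TDP-43 cKO, which did not overlap with control mice. Those that fell were Zmat3 (-1.57, adjusted p = 0.0133), Mdm2 (-0.37, adjusted p = 0.0353), the ligase that degrades p53, and Perp (-1.49, adjusted p = 0.0354). In pL/L/Z SC of the NELF-B cKO, 8 of 20 rose and 0 fell, against 11.1% and 9.68% of all genes, with a median of 0.38 against -0.02 over all genes.

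The 5 p53 targets with the smallest adjusted p in pL/L/Z SC of the NELF-B cKO were Ccng1 (1.47, adjusted p = 0.0062), Gadd45a (1.48, adjusted p = 0.00777), Trp53inp1 (0.92, adjusted p = 0.00848), Phlda3 (1.63, adjusted p = 0.00926) and Btg2 (2.02, adjusted p = 0.0112), as log2 fold changes. In late pL/L/Z SC, which still differed between genotypes in their share of cluster 20, 10 of 19 rose and 0 fell in the TDP-43 cKO, where 15.8% of all genes rose and 19.3% fell, at a median of 0.78 against 0.00 over all genes. For the NELF-B cKO 5 of 19 rose and 0 fell, where 5.62% rose and 3.42% fell. Those with the smallest adjusted p in the TDP-43 cKO were Plk2 (1.83, adjusted p = 0.000183), Eda2r (5.71, adjusted p = 0.000314), a death receptor of the TNF family, Btg2 (2.27, adjusted p = 0.00052), Aen (0.78, adjusted p = 0.000821) and Ccng1 (2.44, adjusted p = 0.00133). Late Plk2 was 7.39, 9.39, 10.1 and 8.52 CPM for controls, 39.5 and 16.1 for NELF-B cKO and 29.4, 30.6 and 34.6 for TDP-43 cKO. Late Eda2r was 20.2, 19.8 and 20.6 CPM for TDP-43 cKO, above the control mice. Late cells of the NELF-B cKO had higher Btg2 (2.08, adjusted p = 0.00818), Plk2 (1.48, adjusted p = 0.00965), Eda2r (4.63, adjusted p = 0.0146), Phlda3 (3.29, adjusted p = 0.0188) and Ccng1 (2.09, adjusted p = 0.0241), but for 3 of these replicate 2 lay at or near the control mice. Late Ccng1 was 50.1 and 7.23 CPM against 4.19 to 8.51 for controls, Eda2r had 21.2 and 0.986 against at most 1.01, and Phlda3 had 14.1 and 1.31 against at most 1.01, so these values rest on replicate 1. None of the list was called in SG, early pL/L/Z SC or P SC, where at most 1.23% of all genes were called in either genotype. The summed level of the list was nonetheless above all control mice in the TDP-43 cKO mice in SG, at 683 to 704 against 628 to 662 CPM, in early pL/L/Z SC, at 580.5 to 607 against 489 to 522.5, and in Sertoli cells, at 958 to 991 against 739 to 820. Of all genes with at least 10 UMIs, 7.41%, 8.42% and 13.9% lay above in the same way. These are shares of single genes, and no share was obtained for sums over lists of this size. The sum overlapped in P SC, at 275 to 318 against 288 to 304 CPM, in RS, at 286 to 374 against 322 to 354, and in Leydig cells, at 828 to 1049 against 763 to 949. In late pL/L/Z SC it lay above, at 610 to 687 against 422 to 476 CPM. It did so in D SC too, at 227 to 261 against 179 to 218 CPM, the highest of them from 2 cells. In the NELF-B cKO it was 500 and 633 CPM in SG, the first below and the second among the control mice. In early pL/L/Z SC it was 504.5 CPM in replicate 1, among the control mice, and 637.5 in replicate 2, above them. In Sertoli cells it was 646 CPM in replicate 1, below all control mice, and 1053 in replicate 2, above them. Both NELF-B cKO mice lay above all control mice in late pL/L/Z SC, at 728 and 519.5 CPM, and in Leydig cells, at 1155 and 1005 CPM.

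Genes of the DNA damage checkpoint beside the 10 were split. Of 30 tested in pL/L/Z SC, 10 rose and 4 fell in the TDP-43 cKO, against 19.7% and 23.3% of all genes, and 8 rose and 0 fell in the NELF-B cKO, against 11.1% and 9.68%. In the TDP-43 cKO the genes with the smallest adjusted p were Clspn (0.99, adjusted p = 0.000636), the adaptor of CHK1, Mre11a (0.74, adjusted p = 0.00125) and Nbn (1.09, adjusted p = 0.00142), subunits of the complex that brings ATM to breaks, Cdc25b (1.98, adjusted p = 0.00244) and Etaa1 (1.05, adjusted p = 0.00257), an activator of ATR. H2afx (-0.87, adjusted p = 0.00455), the histone that MDC1 binds, Rad9b (-0.52, adjusted p = 0.00892), Hormad2 (-0.50, adjusted p = 0.0208) and Hus1b (-0.68, adjusted p = 0.0273) fell. In late pL/L/Z SC of the TDP-43 cKO, 2 of 28 rose, Nbn (0.74, adjusted p = 0.0325) and Hormad1 (0.48, adjusted p = 0.0404), and 3 fell, against 15.8% and 19.3% of all genes, namely Rpa1 (-0.91, adjusted p = 0.0015), Rnf8 (-0.50, adjusted p = 0.0113) and Rad9b (-0.57, adjusted p = 0.0229). For the NELF-B cKO, Cdc25a (1.18, adjusted p = 0.0064), Clspn (1.00, adjusted p = 0.0069), Nbn (1.19, adjusted p = 0.00745), Brca1 (0.87, adjusted p = 0.018) and Etaa1 (0.91, adjusted p = 0.0203) rose in pL/L/Z SC, and 0 of 28 were called in late cells, where 5.62% of all genes rose and 3.42% fell. Clspn, like Chek1, was higher in early than in late cells of the control mice, at 225 to 242 against 38.5 to 43.1 CPM.

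A list of BCL2 family genes and other genes of the mitochondrial route to cell death held members that rose and members that fell, and it is given here in part, without its counts. In pL/L/Z SC of the TDP-43 cKO, Apaf1 (0.92, adjusted p = 0.00116), the core of the apoptosome, Xiap (0.86, adjusted p = 0.00208), an inhibitor of apoptosis, and Cycs (0.63, adjusted p = 0.00321), somatic cytochrome c, were among those that rose. Cyct (-2.42, adjusted p = 0.000256), the testis cytochrome c, Bad (-1.31, adjusted p = 0.000713), Diablo (-1.15, adjusted p = 0.00122), Bcl2l1 (-0.43, adjusted p = 0.0131) and Bak1 (-1.37, adjusted p = 0.0446) fell. Genes that rose in pL/L/Z SC of the NELF-B cKO included Cycs (0.86, adjusted p = 0.00697), Apaf1 (0.76, adjusted p = 0.0147) and Xiap (0.60, adjusted p = 0.0378). Those that fell were Cyct (-1.64, adjusted p = 0.00996), Bad (-0.97, adjusted p = 0.0156) and Diablo (-0.94, adjusted p = 0.0173). In late pL/L/Z SC, Cyct was 502, 405, 323 and 442 CPM for controls, 164 and 297 for NELF-B cKO and 123, 141 and 125 for TDP-43 cKO, and it fell in both genotypes, by 0.95 (adjusted p = 0.0302) and 1.70 (adjusted p = 8.05e-05) on the log2 scale.

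Among 7 tested regulators of p53 in pL/L/Z SC, Cdkn2a rose in both genotypes, and Trp63, which encodes the p53 relative p63, fell in both, where 11.1% of all genes rose and 9.68% fell in the NELF-B cKO and 19.7% and 23.3% in the TDP-43 cKO. The product p19ARF of Cdkn2a restrains MDM2, but it is not the only product of the gene, and UMIs counted per gene do not tell them apart. Cdkn2a was 36.3, 33.2, 59.3 and 33.2 CPM for controls, 109 and 115 for NELF-B cKO and 158, 114 and 98.3 for TDP-43 cKO, and its log2 fold changes were 1.38 (adjusted p = 0.00781) and 1.57 (adjusted p = 0.000566). Trp63 had log2 fold changes of -2.60 (adjusted p = 0.0332) and -2.05 (adjusted p = 0.0206). In control mice it was 0 to 0.810 CPM in early and 16.8 to 25.1 in late pL/L/Z SC. Within late cells it was 9.43 and 5.92 CPM for NELF-B cKO (-1.61, adjusted p = 0.0569) and 0, 18.3 and 9.49 for TDP-43 cKO, which overlapped (-0.90, adjusted p = 0.107). Mdm4, the partner of MDM2, fell in the TDP-43 cKO, at -0.51 (adjusted p = 0.0089). It was not called in the NELF-B cKO, and the difference between the 2 genotypes was not tested. In control mice, Cdkn2a was higher in early than in late pL/L/Z SC, at 143 to 164 against 6.03 to 6.89 CPM, and in late cells it was called in the TDP-43 cKO (0.94, adjusted p = 0.0281).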

How the data were processed

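The authors dissociated whole testes, built 10x 3′ libraries and aligned them with Cell Ranger to mm10, and they deposited UMI counts per gene and barcode with no normalization. The methods name Cell Ranger 6.1.1 and, for the mapping, 7.0.0, whereas the file headers name version 4. From these deposited counts, barcodes were kept above 1000 genes and below 10% mitochondrial UMIs, then clustered with scanpy 1.11.5 under Python 3.11.15 (3000 variable genes, 40 components, 20 neighbors, resolution 0.8), after the 10 genes and the pathway lists had been kept out. Clusters took a cell type from 66 markers. No doublet caller was run. Cells of cKO mice in which the targeted gene was detected were dropped from SG and pL/L/Z SC, and later germ cells were all kept, since nearly every P SC of the TDP-43 cKO held one. UMIs were summed per mouse and stage, and mice with at least 10 cells of a stage entered edgeR 4.0.16 (TMM, quasi-likelihood test, R 4.3.3) with all genotypes in 1 fit, with DESeq2 1.42.0 as an alternative. Free RNA was read from barcodes of 1 to 100 UMIs. On simulated counts of the pooled SG and pL/L/Z SC comparison, over 19468 genes, 35% of genes changed by 1 on the log2 scale and 65% of those changed by 2 were called, and 10 of 110 calls were false. The genes, the pathway lists and the early and late groups were chosen with earlier results of these data known. From each list, up to 5 genes per direction with the smallest adjusted p were named, apart from some genes that are not reported here. Alternatives were RLE size factors, no filter on low counts, DESeq2, the study's own threshold, other rules for leaving out cells, stages from the nearest control cells, a replicate block, subtraction of free RNA and leaving out each mouse. These alternatives were read for the 10 genes and not for the pathway lists.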

Additional observations from a re-analysis of the deposited data

Results flagged for a closer look

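Of 50 levels of the 10 genes in the 4 control mice that were screened for a single distant sample, 2 held one, and chance alone flags about 1 in 20. Atm in pL/L/Z SC was 103 CPM in control replicate 3, above the other 3 control mice, which also had the highest share of early cells among the control mice. Bbc3 in SG was 8.15 CPM in control replicate 1, above the other 3.

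The effect of a genotype differed between pL/L/Z SC and SG for 3 genes by the test of the difference (edgeR, Benjamini-Hochberg adjusted). For the NELF-B cKO the log2 difference was 1.20 for Atm and 1.07 for Chek1. For the TDP-43 cKO it was 1.38 for Atm, 1.08 for Chek1 and 0.62 for Bax. The share of early cells in pL/L/Z SC moved with both genotypes, and its part in these differences was not tested.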

How the results depend on the processing

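The counts below are of the 10 genes called, with the value under the main settings first. Under the threshold of the study, which asks for an adjusted p below 0.01 together with a log2 change of 1 or more, applied here to the unshrunken values of edgeR where the study used shrunken ones of DESeq2, the pooled SG and pL/L/Z SC gave 0 in place of 1 for NELF-B cKO and 0 in place of 6 for TDP-43 cKO, pL/L/Z SC 1 in place of 4 and 3 in place of 8, late pL/L/Z SC 0 in place of 1 and 1 in place of 3, Sertoli cells 0 in place of 1 for TDP-43 cKO, and the difference between stages 0 in place of 2 for NELF-B cKO. With DESeq2 the pool gave 4 in place of 1 for NELF-B cKO, TDP-43 cKO against NELF-B cKO 2 in place of 0, SG 1 in place of 0 for TDP-43 cKO, early pL/L/Z SC 2 in place of 0 for both, and late pL/L/Z SC 2 in place of 1 for NELF-B cKO. With no germ cell excluded the pool gave 0 and late pL/L/Z SC 0 for NELF-B cKO, pL/L/Z SC 5 for TDP-43 cKO, and the difference between stages 0 for NELF-B cKO and 1 for TDP-43 cKO. With Nelfb-positive control cells excluded too, the pool gave 4, early pL/L/Z SC 1, late pL/L/Z SC 0 and the difference between stages 0 for NELF-B cKO. With Tardbp-positive control cells excluded too, TDP-43 cKO gave 1 in the pool, in pL/L/Z SC, in early and late pL/L/Z SC and in the difference between stages, and Mdc1 in the pool turned from a fall to 0.039 on the log2 scale. This was not run in P SC, where no TDP-43 cKO mouse kept 10 cells. With stages from the nearest control cells pL/L/Z SC gave 2 (Atm and Chek1) and 3 (Atm, Chek1 and Bax). With no filter on low counts early pL/L/Z SC gave 2 for TDP-43 cKO, and with RLE size factors Sertoli cells gave 0. With free RNA subtracted the pool gave 0 and 3, Sertoli cells 0 and the difference between stages 0 for both. In the pool and the difference between stages this includes the large subtraction from TDP-43 cKO replicate 1 given above. The cause was not tested.

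Leaving out 1 mouse at a time, the count for NELF-B cKO ranged from 0 to 2 in the pool, 2 to 4 in pL/L/Z SC (2 without control replicate 4), 0 to 3 in early and 0 to 2 in late pL/L/Z SC, and 0 to 3 in the difference between stages. For TDP-43 cKO it ranged from 4 to 9 in the pool, 4 to 8 in pL/L/Z SC (4 without control replicate 4), 0 to 3 in early and 2 to 4 in late pL/L/Z SC, 0 to 2 in SG, 0 to 1 in Sertoli cells and 3 to 4 in the difference between stages. TDP-43 cKO against NELF-B cKO ranged from 0 to 4, the latter without NELF-B cKO replicate 2. A fit with the replicate number as a block gave 0 in the pool, 2 in pL/L/Z SC and 0 in late pL/L/Z SC for NELF-B cKO, and 4 in pL/L/Z SC and 0 in Sertoli cells for TDP-43 cKO. The numbers were not taken to pair the mice, since deviations of same-numbered control and TDP-43 cKO mice correlated at -0.157, -0.0766 and -0.0338, though those of control and NELF-B cKO mice did so at 0.349 and 0.333, which are only 2 pairs and, with 2 NELF-B cKO mice, not independent of each other. Genes with few UMIs, such as Bbc3 and Cdkn1a, carry more counting error, and Cdkn1a also differed between cells and mice, as given above.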
